A study of Homo sapiens with 9 samples.

Results

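The transcriptional response to a progestin was examined in T47D cells in which a doxycycline-inducible hairpin against ELF5 was switched on. T47D is an established human breast cancer line with a luminal phenotype and progesterone receptor. The comparison set the 3 arrays of cells given 10 nM ORG2058, a synthetic progestin that the labels call progesterone, with doxycycline at 0.1 µg/ml for 4 days against the 3 arrays of cells given ethanol vehicle. These 6 of the 9 arrays were chosen by their titles; the other 3 arrays came from cells given 10 nM ORG2058 alone for 4 days. Cells of all 3 groups carried pHUSH, a retroviral vector whose hairpin RNA, aimed at ELF5, is switched on by doxycycline, and were kept under puromycin in medium with insulin. The labels do not say whether the line is a clone or a pool of infected cells, and each array was made from cells of 3 wells combined. No array of doxycycline alone or of a hairpin without a target was analysed here, so the effects of progestin, doxycycline and hairpin in this comparison cannot be told apart. How long the vehicle cells were cultured, and in which batch any array was run, is not in the labels, and such a difference between groups cannot be told apart from the hormone. The design text speaks of independent experiments; p-values here reflect only how far these arrays scatter.

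The progesterone receptor is a ligand-activated transcription factor that binds hormone response elements, many of which the glucocorticoid receptor also recognises. In the breast, progesterone drives lobuloalveolar development, and in T47D cells a sustained progestin exposure is known for stopping proliferation. ELF5 is an ETS-family transcription factor that specifies milk-secreting alveolar cells downstream of prolactin and progesterone signalling.

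Gene expression was measured on Affymetrix human gene arrays, 1 log2 value per probe set and array. Of 33297 probe sets, 21214 had at least 1 gene symbol and were tested together with limma, and a probe set was called where its Benjamini-Hochberg adjusted p was under 0.05. Changes are log2 differences between group means, printed with their standard error (SE) after ±; each group holds 3 arrays. For a gene with any of the 6 arrays below 4 on the log2 scale, 16 was added to the linear value before log2, and such values are marked "with 16 added"; they understate the change of dim genes. Array medians lay between 7.19 and 7.28. Spearman correlations were 0.989 to 0.995 within the groups and 0.949 to 0.962 between vehicle and progestin plus doxycycline. The 10 markers of luminal epithelium were all above the median probe set, with vehicle means of 8.88 to 12.98. Of 21 measured markers of fibroblasts, endothelium and immune cells, 12 lay in the dimmest 25% of probe sets, and 1 was called. That marker, CDH5, which encodes an endothelial cadherin, changed by 0.28 ± 0.084 (adjusted p = 0.038), and its call was lost in 8 of 16 alternative settings. With it, the summed linear level of the 5 endothelial markers went from 668 to 737 with vehicle to 771 to 864 with progestin plus doxycycline. CDH5 was by far the brightest of them, with means of 9.08 and 9.36. PECAM1, VWF, KDR and TEK had means of 4.62 to 5.79, and none of them was called. The part of CDH5 in the results below was not tested. In bulk RNA, fewer cells of a type and less RNA per cell cannot be told apart.

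Progestin plus doxycycline changed the level of 5953 probe sets, 28.1% of those tested. Of these, 3303 were higher than with vehicle, or 15.6%, and 2650 were lower, or 12.5%. The median change over all probe sets was 0.017, and 8874 probe sets, or 41.8%, had 2 groups of arrays that did not overlap. Changes of at least 2-fold with 16 added were called for 513 higher probe sets, 2.42%, and 455 lower ones, 2.14%. The larger changes ran mostly upward: at 4-fold or more, 144 probe sets rose and 39 fell, and at 16-fold or more, 31 rose and 1, for SLITRK6, fell. With progestin alone, 6161 probe sets, 29.0%, were called against the same vehicle arrays. Because both comparisons share those arrays, their values are given side by side, and the direct difference of progestin plus doxycycline against progestin alone is the test of what differed. That difference was called for 4 probe sets, 0.0189%, namely ELF5, MACC1, ST6GAL1 and TMEM44. Leaving out 1 array at a time gave 0 to 2 calls, not all of them among these 4. Genes beyond the naming rule, including those named because 5 or fewer members of a list moved in 1 direction, were chosen after their values were seen.

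ELF5 itself lay close to its vehicle level while the hairpin was on. It read 10.26, 10.21 and 10.05 with vehicle, 11.31, 11.23 and 11.31 with progestin alone and 10.44, 10.46 and 10.35 with progestin plus doxycycline. Every progestin plus doxycycline array was above every vehicle array and below every progestin array. The change against vehicle was 0.24 ± 0.078 (adjusted p = 0.0502), against 1.11 with progestin alone. Over 16 alternative settings its adjusted p against vehicle ran from 0.00319 to 0.137, and 5 of them put it past the threshold. The difference from progestin alone was -0.87 ± 0.078 (adjusted p = 0.029). ELF5 was thus lower than with progestin alone and not shown to be below its vehicle level. An exact permutation test of 3 against 3 arrays cannot give a two-sided p under 0.1, so single genes rest on the fit across all probe sets.

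**Figure D1:**
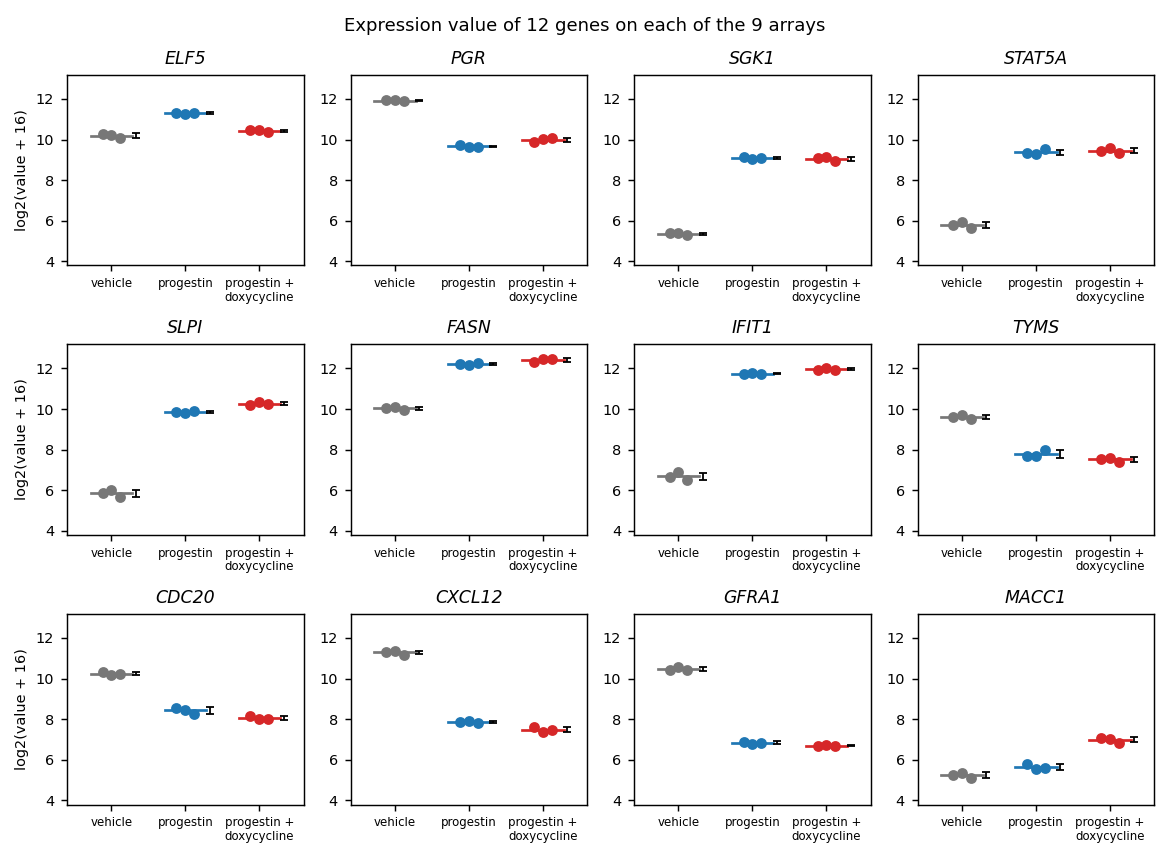
Log2 of the expression value plus 16 (vertical axes) of 12 genes on each of the 9 arrays, with points for arrays, a horizontal line for the group mean and a bar for 1 SD of 3 arrays. ELF5 with progestin plus doxycycline sits near vehicle, whereas SGK1, STAT5A, SLPI, FASN and IFIT1 are high and PGR, TYMS, CDC20, CXCL12 and GFRA1 low in both progestin groups, and MACC1 is highest with doxycycline.

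Genes that progesterone or glucocorticoid receptors are known to induce directly were mostly raised with the hairpin on. Of 29 measured, 23 rose and 0 fell, or 79.3% called against 28.1% of all probe sets. Their median change was 1.39 against 0.017 over all probe sets. With progestin alone 25 rose and 1, CALCR, fell, with a median of 1.41, and none of the 29 was called in the direct difference (lowest adjusted p in this list 0.145). SGK1, a kinase that promotes sodium uptake, read 4.73, 4.68 and 4.55 with vehicle and 9.06, 9.09 and 8.90 with progestin plus doxycycline. Those arrays did not overlap, and the gene was 20.6-fold higher (change 4.36 ± 0.082, adjusted p = 2.91e-08). S100P, a calcium-binding protein, read 5.76, 5.90 and 5.46 with vehicle and 11.35, 11.53 and 11.36 with progestin plus doxycycline, a change of 5.71 ± 0.12. HSD11B2, the enzyme that inactivates cortisol, changed by 3.85 ± 0.12. ERRFI1, a feedback inhibitor of EGFR, changed by 1.94 ± 0.10, and PER1, a clock repressor that also responds to glucocorticoids, by 1.72 ± 0.070. The paracrine ligands moved less evenly: WNT4, which mediates progesterone's action on neighbouring mammary cells, rose by 1.16 ± 0.17 and WNT5A by 1.31 ± 0.24. TNFSF11, which encodes RANKL, another such ligand, had a change of 0.021 ± 0.12 and was not called (adjusted p = 0.932). CALCR, the calcitonin receptor, was also not called, at -0.28 ± 0.12.

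The receptor for the ligand was strongly lowered. PGR, the progesterone receptor, read 11.92, 11.92 and 11.89 with vehicle and 9.86, 9.99 and 10.03 with progestin plus doxycycline. The groups lay well apart, at 3.86-fold lower (change -1.95 ± 0.069, adjusted p = 5.89e-07), and with progestin alone the change was -2.28. The direct difference between the progestin groups, 0.33 ± 0.069, was not called (adjusted p = 0.132). Of 9 measured steroid receptors 4 rose and 2 fell, or 66.7% against 28.1% of all probe sets. VDR, the vitamin D receptor, changed by 1.60 ± 0.086, NR3C1, the glucocorticoid receptor, by 0.66 ± 0.091, and PGRMC2, a membrane heme-binding protein, by 0.85 ± 0.068. RXRA, the shared partner of several nuclear receptors, rose by 0.28 ± 0.081. ESR1, the estrogen receptor, changed by -0.44 ± 0.080 on its brighter probe set, whereas a dimmer probe set of ESR1 was not called at 0.13 ± 0.25. Among 11 receptor chaperones and coregulators, 3 rose and 5 fell, or 72.7% against 28.1% of all probe sets. PTGES3, the p23 cochaperone, fell (-0.53 ± 0.095), as did FKBP4, STIP1, HSPA8 and HSP90AA1, whose changes ran from -0.40 to -0.26. The coactivators NCOA1 (0.63 ± 0.093), EP300 (0.50 ± 0.093) and CREBBP (0.46 ± 0.074) rose.

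Other ETS factors of epithelium changed in both directions. Of 11 measured in the list with ELF5, 5 rose and 2 fell, or 63.6% against 28.1% of all probe sets. ELF3 read 5.27, 5.18 and 5.34 with vehicle and 7.91, 8.16 and 7.86 with progestin plus doxycycline, a change of 2.71 ± 0.11 (adjusted p = 8.81e-07). EHF, the relative expressed in many glandular epithelia, rose by 1.57 ± 0.067, ELF1 by 0.71 ± 0.077, ETS2 by 0.77 ± 0.12 and SPDEF by 0.62 ± 0.080. ETV4 fell (-1.37 ± 0.22), and ELF2 fell by less (-0.39 ± 0.093).

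Prolactin signalling runs from the receptor PRLR through the kinase JAK2 to the transcription factors STAT5A and STAT5B. Of 10 measured members 5 rose and 0 fell, or 50% against 28.1% of all probe sets. STAT5A read 5.27, 5.49 and 5.08 with vehicle and 9.42, 9.57 and 9.29 with progestin plus doxycycline. It was 17.7-fold higher (change 4.14 ± 0.12, adjusted p = 2.6e-07), and its change with progestin alone was 4.07. JAK2 rose by 2.22 ± 0.085, STAT5B by 1.46 ± 0.093, PRLR by 0.54 ± 0.065 and CISH, a STAT5-induced feedback inhibitor, by 0.37 ± 0.10. The inhibitors SOCS1, SOCS2 and SOCS3 were not called, with changes between -0.076 and 0.041.

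Of 21 measured milk and secretory genes 8 rose and 0 fell, or 38.1% against 28.1% of all probe sets. Their median change was 0.40. In the direct difference between the progestin groups 8 of the 21 were above 0, and 1 was called (adjusted p = 0.029). The only probe sets called in that difference were those of ELF5, ST6GAL1, TMEM44 and MACC1. None of the milk or secretory genes named below was called in it. SLPI, a secreted protease inhibitor, read 5.39, 5.61 and 5.15 with vehicle and 10.21, 10.33 and 10.23 with progestin plus doxycycline. It was 29.3-fold higher (change 4.87 ± 0.11, adjusted p = 7.33e-08), and its change with progestin alone was 4.44. PIP, the prolactin-induced protein of apocrine secretion, rose by 3.26 ± 0.13 and LCN2, an iron-siderophore binder, by 2.12 ± 0.46. For PIP the change with progestin alone was 3.75, and the direct difference of -0.49 ± 0.13 was not called (adjusted p = 0.174). SCGB2A2, which encodes mammaglobin, read 4.39, 5.18 and 4.34 with vehicle and 6.82, 6.99 and 7.00 with progestin plus doxycycline, with 16 added. These groups did not overlap either, and the change was 2.30 ± 0.18. Of the milk proteins proper, the caseins CSN1S1 and CSN2 and the lactose synthase subunit LALBA were not called. CSN2 changed by -0.33 ± 0.14. With 16 added, CSN1S1 changed by -0.093 ± 0.10 and LALBA by -0.12 ± 0.13. CSN3, the kappa-casein gene, was called, with a change of 0.28 ± 0.10 with 16 added and arrays at 4.60, 4.86 and 4.95 after progestin plus doxycycline, close to the floor of 4.

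Interferon-induced genes, whose products block virus replication, had the highest median change of the 38 lists. All 45 measured members rose, against 15.6% of all probe sets, with a median change of 2.96. IFIT1, which binds foreign RNA caps, read 6.41, 6.68 and 6.25 with vehicle and 11.94, 12.01 and 11.91 with progestin plus doxycycline. It was 45.5-fold higher (change 5.51 ± 0.11, adjusted p = 2.91e-08). OAS1, which makes the activator of RNase L, read 6.23, 6.08 and 5.83 with vehicle and 11.26, 11.28 and 11.25 with progestin plus doxycycline, a change of 5.21 ± 0.10. IFIT2 rose by 5.34 ± 0.12, OAS2 by 5.04 ± 0.12 and IFI27, a mitochondrial membrane protein, by 5.01 ± 0.18. TRIM22, a ubiquitin ligase that restricts viruses, rose by 4.80 ± 0.077 with 16 added. With progestin alone all 45 also stood higher, with a median of 2.71, and the direct difference had a median of 0.14 with no member called (lowest adjusted p in this list 0.166). That difference was above 0 for 42 of the 45, and its median over all probe sets was 0.027. The shift of the list as a whole was not tested. None of the interferon ligands was called. Of 15 interferons and receptor components 1 rose and 4 fell, or 33.3% against 28.1% of all probe sets, and the 1 that rose was the receptor chain IFNGR1 (0.55 ± 0.10). IFNGR2 fell (-1.09 ± 0.077), as did IFNAR2 (-0.97 ± 0.19), the kinase JAK1 (-0.50 ± 0.083) and IFNLR1 (-0.34 ± 0.070). IFNB1, the interferon beta gene, changed by 0.28 ± 0.15 with 16 added and IFNL1 by -0.23 ± 0.19, and neither was called. The 5 calls among interferons and receptor components became 10 with array weights. Of 13 genes of MHC class I antigen processing 9 rose and 0 fell, or 69.2% against 28.1% of all probe sets. PSMB8, an immunoproteasome subunit, rose by 1.03 ± 0.12 and the peptide trimmer ERAP1 by 0.98 ± 0.091. The light chain B2M rose by 0.96 ± 0.080 and the class I transactivator NLRC5 by 0.95 ± 0.17.

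Promoter sequences are shown for 1 gene each of the interferon, mitosis and replication lists, because their members moved together. The gene was the called member with the smallest adjusted p by limma among those holding the list's motif before the start. A match in each printed sequence was therefore fixed by that choice, and OAS1, KIF20A and GINS1, for example, held none. Each sequence is the 250 bases before the transcription start in RefSeq (GRCh38.p14), 5′ to 3′ on the gene's plus strand, with the match in capitals. IFI44 (chr1:78649539-78649788) holds an interferon-stimulated response element on the reverse strand that starts 18 bases before the gene's start. NCAPG (chr4:17810729-17810978) holds the CHR element of cell-cycle genes 35 bases before. TYMS (chr18:657403-657652) holds an E2F element on the reverse strand 39 bases before.
IFI44: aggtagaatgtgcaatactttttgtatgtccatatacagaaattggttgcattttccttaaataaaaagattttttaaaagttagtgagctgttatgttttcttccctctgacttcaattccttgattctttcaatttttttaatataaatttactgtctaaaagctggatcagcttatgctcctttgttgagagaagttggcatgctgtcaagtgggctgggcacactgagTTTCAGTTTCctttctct
NCAPG: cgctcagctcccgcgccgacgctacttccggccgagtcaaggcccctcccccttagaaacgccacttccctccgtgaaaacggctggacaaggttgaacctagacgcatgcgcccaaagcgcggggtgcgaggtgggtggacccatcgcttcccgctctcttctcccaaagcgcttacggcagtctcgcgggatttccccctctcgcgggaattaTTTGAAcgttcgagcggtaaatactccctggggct
TYMS: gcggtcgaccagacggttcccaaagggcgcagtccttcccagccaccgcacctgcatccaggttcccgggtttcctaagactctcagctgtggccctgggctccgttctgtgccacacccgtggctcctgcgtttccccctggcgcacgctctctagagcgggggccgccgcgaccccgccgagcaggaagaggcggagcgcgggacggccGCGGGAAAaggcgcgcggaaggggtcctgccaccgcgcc
In windows of 300 bases (250 before to 50 after the start, both strands), the response element, GAAA, 2 bases of any kind and GAAA, stood in 23 of 36 interferon-induced genes with a promoter entry, 63.9%, and in 3.65% of all 27305 promoters. The CHR element, TTTGAA, stood in 32 of 45 mitosis genes, 71.1%, against 15.4%. An E2F element, counted as TTCCCGCC, TTCGCGCC or TTTCCCGC (the first and last of which can overlap), stood in 17 of 35 replication genes, 48.6%, against 4.93%. The hormone response element, GNACA, 3 bases and TGTNC, stood in 0 of 22 direct targets and in 0.388% of all promoters. With so rare a motif, 0 among 22 promoters cannot tell the direct targets from other genes. A match describes letters in these windows and is not evidence that a factor bound there. IFI44 itself read 4.58, 4.45 and 4.51 with vehicle and 8.67, 8.77 and 8.80 with progestin plus doxycycline, with 16 added. NCAPG, a condensin subunit, read 9.86, 9.83 and 9.81 with vehicle and 7.88, 8.01 and 7.87 with progestin plus doxycycline. TYMS, which makes thymidylate for DNA, read 9.57, 9.66 and 9.49 with vehicle and 7.43, 7.47 and 7.26 with progestin plus doxycycline. IFI44 was higher and the other two lower, without overlap.

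The cell-division lists were all lower, with nearly every member called. Of 39 measured DNA replication genes 37 fell and 0 rose, with a median of -1.14. Of 51 mitosis genes all 51 fell, with a median of -1.70. Across all probe sets 12.5% fell. TYMS changed by -2.19 ± 0.11 (adjusted p = 3.98e-06), GINS1, a subunit of the replicative helicase, by -1.86 ± 0.12, GINS4 by -1.82 ± 0.12 and the licensing factor CDT1 by -1.75 ± 0.093. The 2 replication genes not called were GINS2 (-0.23 ± 0.086) and RPA2 (-0.062 ± 0.10). CDC20, the activator of the anaphase-promoting complex, read 10.28, 10.15 and 10.22 with vehicle and 8.08, 7.92 and 7.92 with progestin plus doxycycline, 4.75-fold lower (change -2.25 ± 0.10, adjusted p = 1.44e-06). KIF20A, a cytokinesis motor, changed by -2.08 ± 0.087, NUF2 of the kinetochore by -2.11 ± 0.11 and CCNB2, a mitotic cyclin, by -1.98 ± 0.13. With progestin alone the medians were -1.04 for replication and -1.49 for mitosis. The direct difference had medians of -0.068 and -0.15, with no member of either list called (lowest adjusted p 0.228 and 0.12). It was above 0 for 9 of the 39 replication genes and 13 of the 51 mitosis genes, a shift that was not tested.

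Checkpoint and repair genes followed in part. Of 21 genes of recombination and mismatch repair 16 fell and 0 rose, or 76.2% against 28.1% of all probe sets. Their median was -1.18. The helicase BLM changed by -1.90 ± 0.14, RAD54L by -1.72 ± 0.10, BARD1, the partner of BRCA1, by -1.67 ± 0.092 and EXO1 by -1.61 ± 0.10. The 5 not called were FANCC, PALB2, ATR, PMS2 and ATM, with changes of -0.27 to 0.25. Of 21 G1 cyclins, E2F factors and pocket proteins 14 fell and 2 rose, or 76.2% against 28.1% of all probe sets. E2F7 (-1.67 ± 0.092), CDC25A (-1.46 ± 0.079), CCNE2 (-1.40 ± 0.088) and E2F8 (-1.42 ± 0.078) fell, and CDK6 (1.33 ± 0.15) and CCND3 (0.60 ± 0.11) rose. MYC was not called, at 0.16 ± 0.11. Of 7 CDK inhibitors 1 rose and 2 fell, or 42.9% against 28.1% of all probe sets. CDKN1B, which encodes p27, rose by 0.46 ± 0.090, CDKN3 fell (-1.92 ± 0.071) and CDKN2A fell (-0.53 ± 0.11). CDKN1A, which encodes p21, was not called, at 0.067 ± 0.087. CDKN3 is a phosphatase, unlike the other inhibitors. The 3 calls in this list became 5 with array weights. Of 24 p53 targets and BCL2 relatives 7 rose and 3 fell, or 41.7% against 28.1% of all probe sets. GDF15, a stress cytokine, rose by 1.85 ± 0.29, the survival proteins BCL2L1 by 1.17 ± 0.078 and MCL1 by 0.89 ± 0.068, and TP53INP1 by 0.78 ± 0.092, while DDB2 (-0.62 ± 0.089), BID (-0.42 ± 0.077) and BAX (-0.32 ± 0.095) fell.

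**Figure D2:**
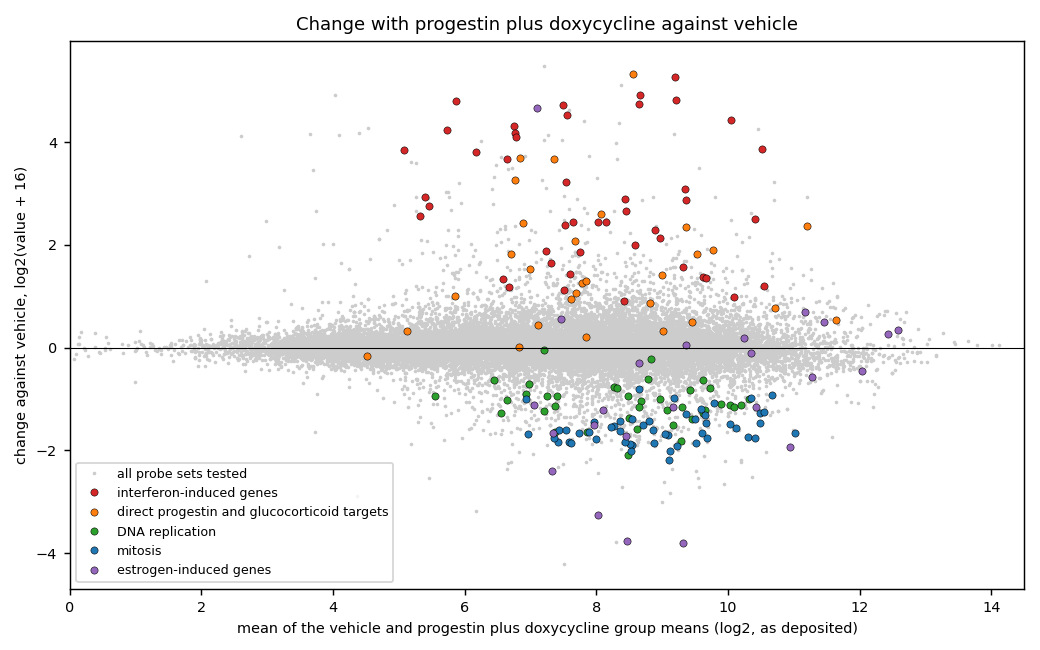
Each point is a probe set, with the mean of the vehicle and progestin plus doxycycline levels (log2, horizontal axis) against its log2 change with 16 added (vertical axis); 5 gene lists are coloured. Interferon-induced genes and direct targets lie mostly above 0, replication and mitosis genes below it, and estrogen-induced genes on both sides.

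Estrogen-induced genes were divided, most of them being lower. Of 24 measured 14 fell and 6 rose, or 83.3% against 28.1% of all probe sets. Their median was -0.88, against -0.71 with progestin alone. CXCL12, a chemokine, read 11.30, 11.36 and 11.17 with vehicle and 7.49, 7.25 and 7.33 with progestin plus doxycycline. GFRA1, a coreceptor for glial-derived neurotrophic factor, read 10.41, 10.57 and 10.40 with vehicle and 6.44, 6.51 and 6.43 with progestin plus doxycycline. Both were far below vehicle on every array, at changes of -3.92 ± 0.086 and -3.996 ± 0.077 (adjusted p = 5.04e-08 and 2.91e-08). HEY2, a Notch-responsive repressor, also fell (-3.50 ± 0.084). SERPINA3, a serine protease inhibitor, ran the other way, at 5.24, 5.55 and 4.82 with vehicle and 9.79, 9.94 and 9.86 with progestin plus doxycycline, with 16 added, a change of 4.66 ± 0.15. The trefoil gene TFF1 fell (-1.24 ± 0.12) and GREB1, another classic estrogen target, rose (0.70 ± 0.068). PGR, described above, belongs to this list too.

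Of 14 luminal transcription factors and keratins 9 rose and 2 fell, or 78.6% against 28.1% of all probe sets. Their median was 0.54. KRT80 rose by 1.90 ± 0.10, KRT7 by 1.58 ± 0.082, KRT4 by 1.52 ± 0.093 and KRT23 by 0.95 ± 0.10, all of them keratins, the filament proteins of epithelium. The 2 that fell were the transcription factors GATA3 (-0.52 ± 0.078) and TFAP2C (-0.27 ± 0.081). Of the 10 luminal identity markers, which overlap this list, 2 rose and 3 fell, or 50% against 28.1% of all probe sets. KRT19 (0.50 ± 0.062) and CDH1 (0.29 ± 0.064) rose, and PGR, GATA3 and ESR1 fell. Of 11 basal and myoepithelial genes 3 rose and 1 fell, or 36.4% against 28.1% of all probe sets. EGFR rose by 1.74 ± 0.10, the basal keratin KRT5 by 1.03 ± 0.18 and the smooth muscle protein CNN1 by 0.63 ± 0.13, and smooth muscle actin ACTA2 fell (-0.40 ± 0.087). Of 39 adhesion, integrin and laminin genes 14 rose and 10 fell, or 61.5% against 28.1% of all probe sets. With progestin alone 9 rose and 13 fell. CDSN, which encodes corneodesmosin, rose by 4.18 ± 0.13 with 16 added, from a vehicle mean of 4.28, close to the floor of 4. Its other probe sets were also called higher, at 4.15 and 4.13 with 16 added. CLDN1, a tight junction claudin, rose by 1.94 ± 0.12 and DSP, the desmosomal plakin, by 1.33 ± 0.083, and the integrin subunit ITGB6 fell (-2.06 ± 0.16). For DSP the change with progestin alone was 0.58, and the direct difference of 0.75 ± 0.083 fell short of the threshold (adjusted p = 0.0549) and passed it with 16 added (adjusted p = 0.0114).

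Salt and water transport genes included KCNMA1 and AQP3, both among the 12 highest changes. Of 21 ion channels and pumps 11 rose and 4 fell, or 71.4% against 28.1% of all probe sets. Their median was 0.62. KCNMA1, a calcium-activated potassium channel, read 5.22, 5.07 and 4.68 with vehicle and 10.46, 10.51 and 10.45 with progestin plus doxycycline, with 16 added. AQP3, which passes water and glycerol, read 4.03, 5.66 and 5.20 with vehicle and 10.26, 10.18 and 10.14 with progestin plus doxycycline. Both groups were apart for either gene, with changes of 5.49 ± 0.12 and 5.23 ± 0.35. FXYD3, a sodium pump regulator, rose by 2.66 ± 0.089. All 3 measured subunits of the epithelial sodium channel rose, SCNN1A by 1.61 ± 0.12, SCNN1B by 1.47 ± 0.091 and SCNN1G by 2.82 ± 0.22. ATP13A4, a transporter of the P5 ATPase family, rose by 3.46 ± 0.11 with 16 added. The 4 that fell were the potassium channel KCNK5 (-2.67 ± 0.13), the cotransporter SLC12A2 (-0.65 ± 0.079), KCNE4 (-0.63 ± 0.19) and KCNK6 (-0.42 ± 0.076).

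Fatty acid genes were raised more often than lowered, and cholesterol genes lowered more often than raised. Of 28 genes of fatty acid synthesis and storage 14 rose and 7 fell, or 75% against 28.1% of all probe sets. FASN, fatty acid synthase, read 10.05, 10.07 and 9.91 with vehicle and 12.29, 12.47 and 12.44 with progestin plus doxycycline, 5.24-fold higher (change 2.39 ± 0.081, adjusted p = 4.83e-07). ACSL1, which activates long-chain fatty acids, rose by 2.91 ± 0.10, THRSP, a lipogenic regulator, by 1.46 ± 0.10 and PNPLA2, the adipose lipase, by 1.10 ± 0.083. SCD, a desaturase, was among those that fell (-0.38 ± 0.063). Of 20 cholesterol genes 7 fell and 2 rose, or 45% against 28.1% of all probe sets. INSIG1, the sterol sensor's partner, fell (-1.41 ± 0.072), as did EBP (-0.81 ± 0.085), SQLE (-0.57 ± 0.063) and HMGCS1 (-0.57 ± 0.084), while SREBF2 (0.33 ± 0.10) and TM7SF2 (0.42 ± 0.085) rose. The count of cholesterol genes called, 9, was 14 after quantile normalization and 16 with array weights. Of 28 steroid-converting enzymes 8 rose and 2 fell, or 35.7% against 28.1% of all probe sets, and 6 were called once the dimmest 25% of probe sets were left out. SRD5A1, a steroid 5-alpha reductase, rose by 1.501 ± 0.086 and UGT2B7, a glucuronyl transferase, by 1.65 ± 0.16 with 16 added. CYP1B1, which hydroxylates estrogens, fell (-1.32 ± 0.087), as did the steroid sulfatase STS (-0.99 ± 0.12). The UGT2B genes are close copies, so their probe sets may share signal.

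**Figure D3:**
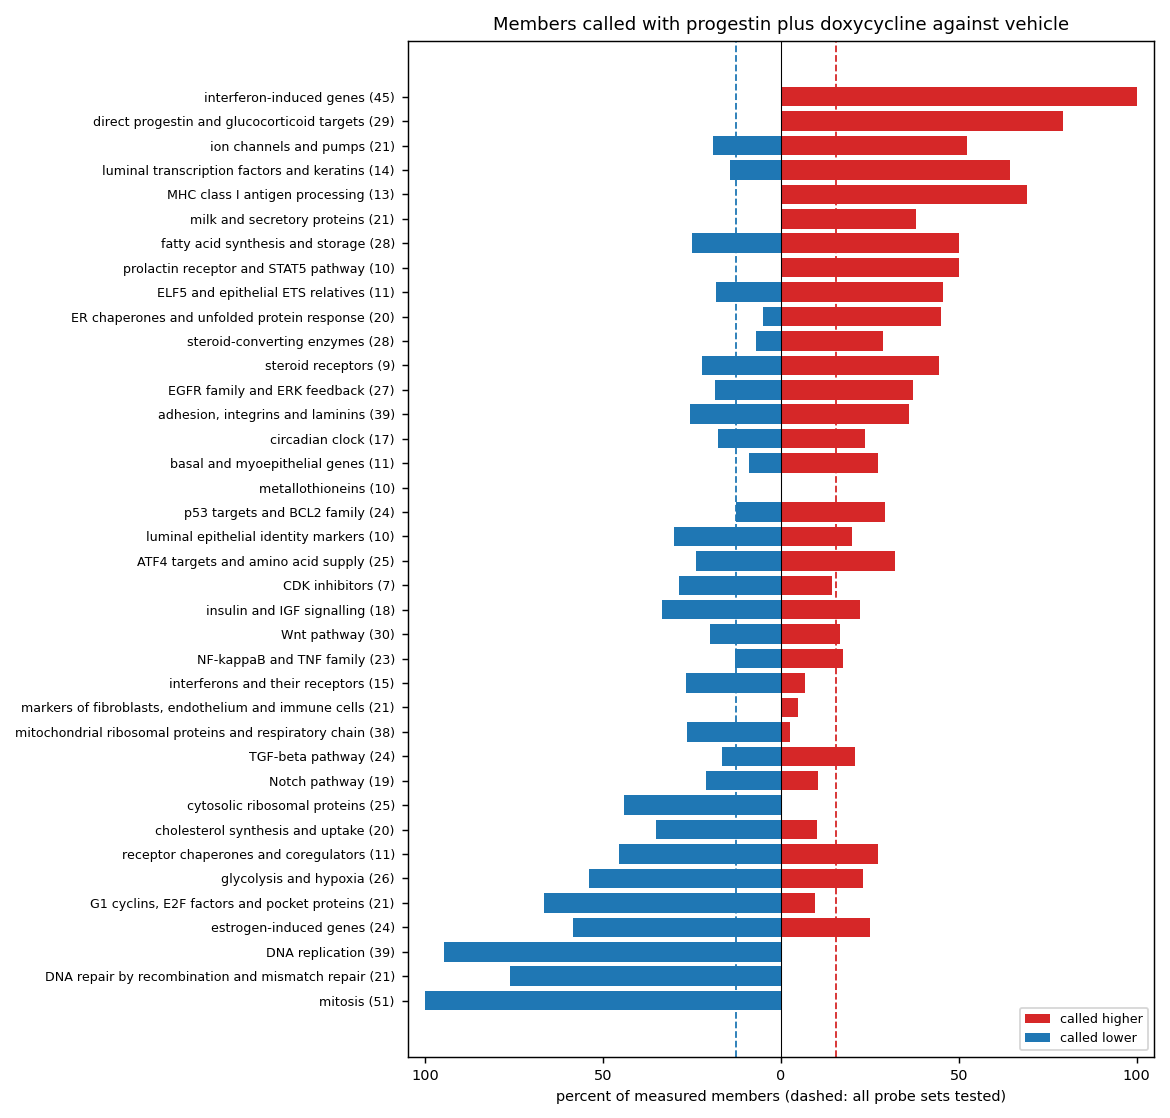
Percent of the measured members of each of 38 gene lists (number measured in brackets) called higher, to the right, and lower, to the left, with progestin plus doxycycline against vehicle; dashed lines mark all probe sets tested, 15.6% higher and 12.5% lower. Interferon-induced genes reach 100% higher and mitosis genes 100% lower.

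Growth factor and developmental pathways held changes in both directions, and for several of them the share called was close to the 28.1% of all probe sets. Of 27 genes of the EGFR family and ERK feedback 10 rose and 5 fell, or 55.6% against 28.1% of all probe sets. The ligand EGF rose by 1.67 ± 0.15, the receptor ERBB2 by 1.28 ± 0.10 and the AP-1 subunit JUNB by 1.37 ± 0.084, while the ERK phosphatase DUSP6 fell (-1.47 ± 0.21), as did SPRY4 (-1.15 ± 0.19), SPRED1 (-0.72 ± 0.13), EREG (-0.62 ± 0.16) and IER3 (-0.32 ± 0.067). Of 18 insulin and IGF genes 4 rose and 6 fell, or 55.6% against 28.1% of all probe sets. The adaptor GRB14 fell (-1.96 ± 0.10), the binding proteins IGFBP5 (-1.18 ± 0.077) and IGFBP4 (-0.58 ± 0.078) fell, and the kinase AKT1 fell (-0.55 ± 0.070). GRB7, PIK3R1, INSR and IGFBP2 rose, with changes of 0.30 to 0.53. Of 19 Notch pathway genes 2 rose and 4 fell, a share of 31.6% that is near the background. The receptor NOTCH2 rose by 1.51 ± 0.083 and the target HES1 by 1.05 ± 0.13, and NRARP, a feedback inhibitor, fell (-1.53 ± 0.086) together with HEY2, JAG1 (-0.42 ± 0.12) and NOTCH3 (-0.27 ± 0.068). Of 30 Wnt pathway genes 5 rose and 6 fell, or 36.7% against 28.1% of all probe sets. The ligands WNT4 and WNT5A led the rises, with FZD4 (0.46 ± 0.067), LEF1 (0.48 ± 0.081) and FZD3 (0.31 ± 0.092) behind them. The inhibitor DKK1 fell (-1.57 ± 0.23), as did the receptor FZD7 (-0.98 ± 0.11). Of 24 TGF-beta pathway genes 5 rose and 4 fell, a total of 9, or 37.5% against 28.1%, that became 14 after quantile normalization. ID3 rose by 1.53 ± 0.10, the activin subunit INHBB by 1.40 ± 0.077, and BMPR2, SKIL and TGFB3 by 0.65, 0.61 and 0.39. The receptors BMPR1B (-1.26 ± 0.17) and TGFBR1 (-0.96 ± 0.064), with TGFB1 (-0.67 ± 0.15) and SMAD3 (-0.49 ± 0.10), fell. Of 23 genes of the NF-kappaB and TNF family 4 rose and 3 fell, or 30.4%, which is about the share among all probe sets, so the counts say nothing particular of this family. TNFSF10, the death ligand TRAIL, rose by 2.09 ± 0.11, the inhibitor NFKBIA by 0.77 ± 0.068, RELA by 0.38 ± 0.087 and TNFAIP3 by 0.54 ± 0.13, the last of which was not called without progestin plus doxycycline replicate 2 (adjusted p = 0.0506). RELB (-0.71 ± 0.14), NFKB1 (-0.45 ± 0.11) and NFKBIE (-0.36 ± 0.11) fell.

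Glycolytic and cytosolic ribosomal genes were lowered more often than raised. The list of endoplasmic reticulum chaperones and unfolded protein response genes held more rises than falls, unlike the receptor chaperones described above. Of 26 glycolysis and hypoxia genes 14 fell and 6 rose, or 76.9% against 28.1% of all probe sets. Their median was -0.28. The aldolase ALDOC fell (-0.91 ± 0.075), as did GPI (-0.85 ± 0.066) and ADM (-1.01 ± 0.14), and NDRG1, a hypoxia- and differentiation-responsive gene, rose by 0.89 ± 0.15. Of 25 ATF4 targets and amino acid genes 8 rose and 6 fell, or 56% against 28.1% of all probe sets. The serine synthesis enzymes PSPH (-1.58 ± 0.16) and PHGDH (-1.41 ± 0.12) fell, and the stress-response genes DDIT4 (1.69 ± 0.086) and DDIT3 (1.34 ± 0.18) rose. Of 20 endoplasmic reticulum chaperones and unfolded protein response genes 9 rose and 1, PDIA4 (-0.25 ± 0.074), fell. That was 50% called, against 28.1% of all probe sets. ATF6, the membrane-bound sensor, rose by 1.02 ± 0.083, DNAJB9 by 0.69 ± 0.078, HERPUD1 by 0.66 ± 0.12 and CREB3L4 by 0.57 ± 0.13. Of 25 cytosolic ribosomal proteins 11 fell and 0 rose, or 44% against 28.1% of all probe sets. Among those that fell were RPS2 (-0.44 ± 0.066), RPS19 (-0.42 ± 0.084) and RPL3 (-0.40 ± 0.073). RPS9 fell on its brighter probe set (-0.44 ± 0.077) and was not called on another (0.075 ± 0.16). The ribosomal count of 11 was 5 without vehicle replicate 1, without vehicle replicate 2 or without progestin plus doxycycline replicate 3, 6 without progestin plus doxycycline replicate 1, and 19 with array weights. Of 38 mitochondrial ribosomal and respiratory chain genes 10 fell and 1, MRPL15 (0.34 ± 0.095), rose, a share called of 28.9% that does not stand out from the 28.1% of all probe sets. TFAM, the mitochondrial transcription factor, fell (-0.72 ± 0.087), as did MRPL12 (-0.53 ± 0.086), MRPS2 (-0.45 ± 0.10) and CYC1 (-0.43 ± 0.065). That total of 11 was 4 without vehicle replicate 1 or progestin plus doxycycline replicate 3, 5 without vehicle replicate 2 or progestin plus doxycycline replicate 1, 7 without progestin replicate 1 or 2, and 22 with array weights. Of 17 circadian clock genes 4 rose and 3 fell, or 41.2% against 28.1% of all probe sets. PER1 led, with CRY2 (0.93 ± 0.066), PER2 (0.77 ± 0.10) and BMAL1 (0.68 ± 0.14), while PER3 (-1.46 ± 0.10), NR1D2 (-0.36 ± 0.11) and NR1D1 (-0.29 ± 0.077) fell. None of 10 metallothioneins was called by limma, and 1 had an unadjusted p under 0.05. MT1G changed by 0.36 ± 0.12 (adjusted p = 0.0535) and MT1H by 0.34 ± 0.28. MT1G was called in 5 of the 16 alternative settings, 1 of which left out progestin plus doxycycline replicate 1.

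**Figure D4:**
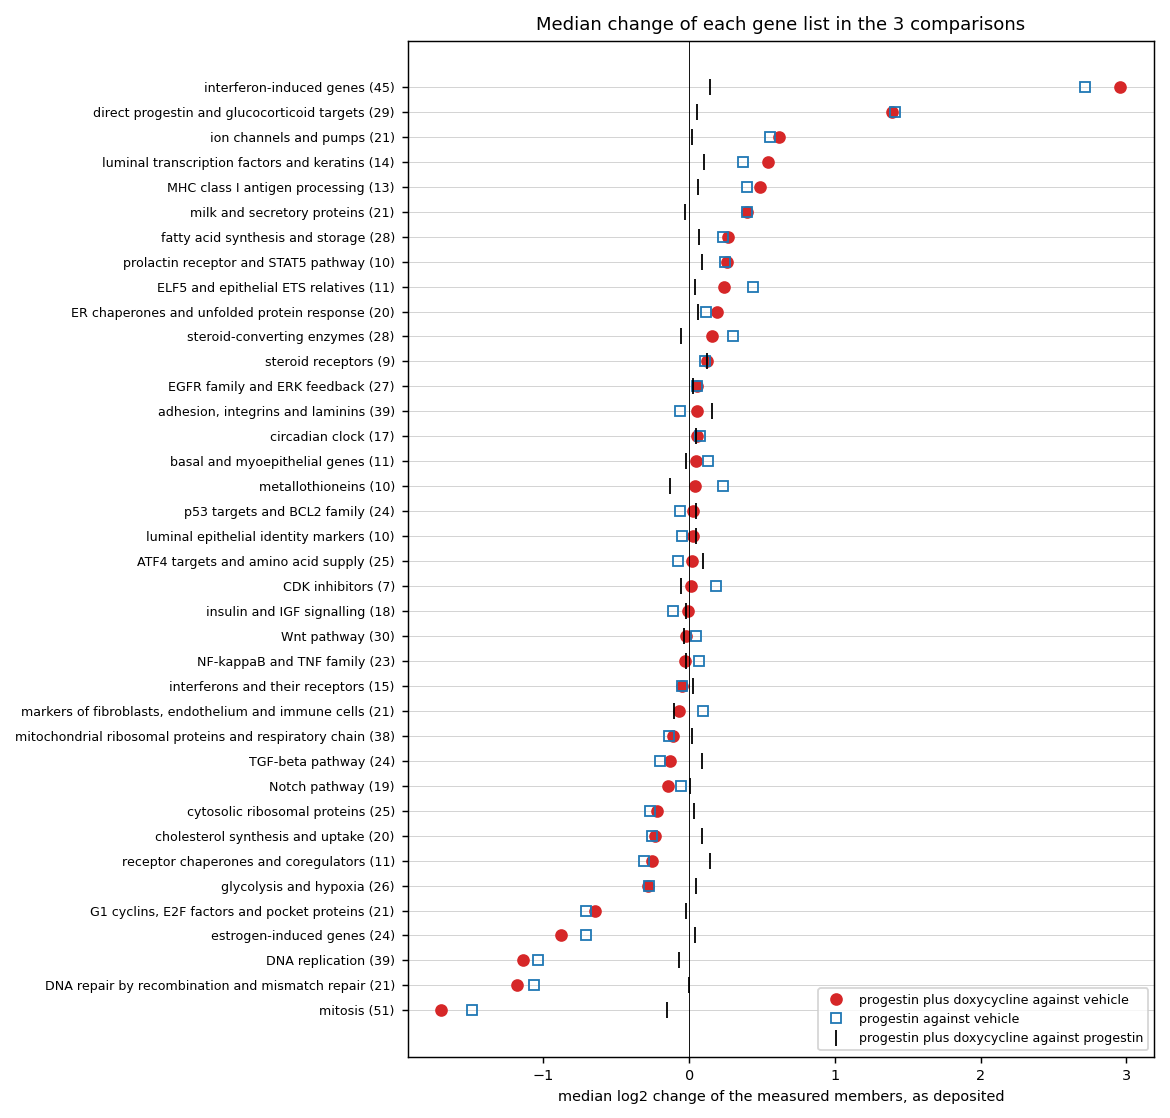
Median log2 change (horizontal axis) of the measured members of 38 gene lists (number measured in brackets) for progestin plus doxycycline against vehicle (circles), progestin against vehicle (squares) and the direct difference of the progestin groups (ticks). Both comparisons with vehicle share vehicle arrays; the direct medians lie between -0.15 and 0.16.

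Of the 12 highest changes with 16 added, 6 belonged to interferon-induced genes described above (IFIT1, OAS1, IFI27, TRIM22, OAS2 and IFIT2). Among the other 6, GNMT, a glycine methyltransferase, read 5.66, 5.67 and 5.52 with vehicle and 11.13, 11.22 and 11.02 with progestin plus doxycycline, a change of 5.51 ± 0.079. SGPP2, a sphingosine phosphate phosphatase, changed by 4.92 ± 0.18 with 16 added. Among the lowest, SLITRK6, a neuronal membrane protein, read 9.96, 9.94 and 9.70 with vehicle and 5.01, 5.30 and 5.14 with progestin plus doxycycline. Its fall was the steepest on the scale with 16 added, and as deposited it changed by -4.72 ± 0.12 (adjusted p = 9.41e-08). CDC20B changed by -4.02 ± 0.11, NCAM2, a neural adhesion molecule, by -3.12 ± 0.093, EDARADD, the adaptor of the ectodysplasin receptor, by -2.93 ± 0.14 and OLFM1 by -2.85 ± 0.071. ELOVL2, which lengthens polyunsaturated fatty acids, changed by -2.71 ± 0.082, the collagen COL12A1 by -2.78 ± 0.092, the histone H3C2 by -2.71 ± 0.12 and ANKRD7 by -2.89 ± 0.14 with 16 added. Histone genes of the H3 cluster are near-identical copies, so the probe set of H3C2 may carry signal of its relatives.

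**Figure D5:**
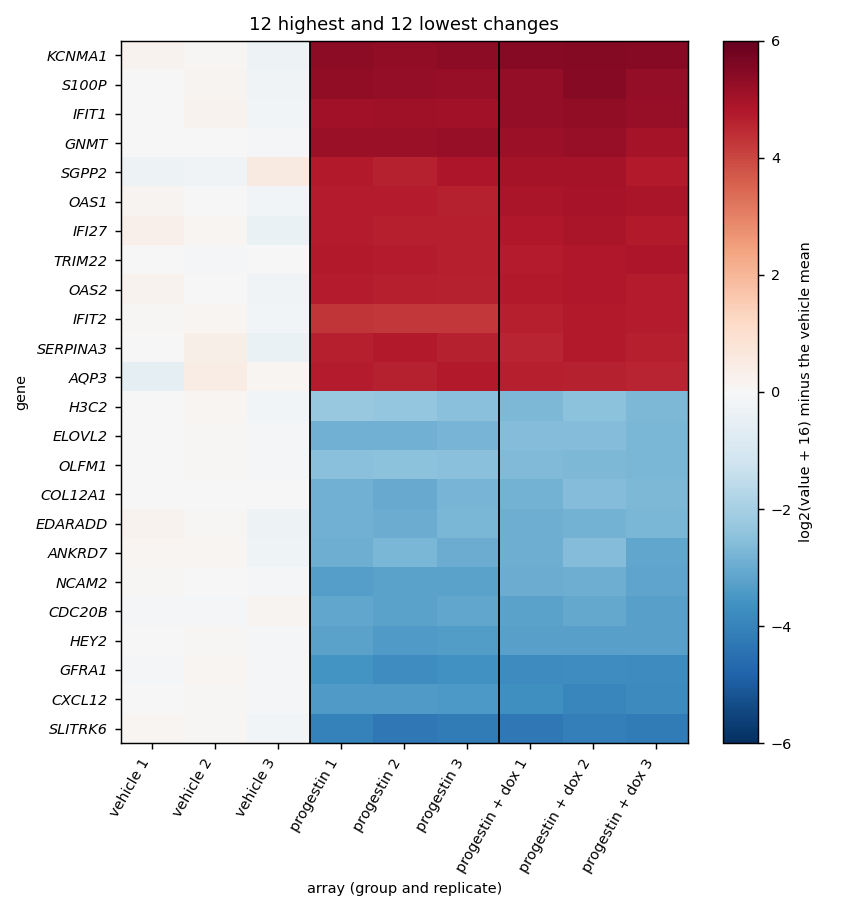
Log2 of the value plus 16 minus the vehicle mean (colour scale) of the 12 genes with the highest and the 12 with the lowest change, on each of the 9 arrays. All 24 genes are shifted the same way on the 3 progestin and the 3 progestin plus doxycycline arrays, as the naming rule requires for the latter.

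The direct difference between the progestin groups was called for 4 probe sets, and 2969 of 21214 had an unadjusted p under 0.05. The number of calls depended on the fit, at 530 with a robust variance trend, 158 with the dimmest 25% left out, 15 with 16 added and 0 with only these 2 groups fitted. MACC1, a regulator of MET expression, read 4.50, 4.66 and 4.22 with vehicle, 5.30, 4.96 and 4.99 with progestin and 6.89, 6.86 and 6.63 with progestin plus doxycycline. It was far above both other groups with doxycycline, at 2.33 ± 0.14 against vehicle and 1.71 ± 0.14 against progestin (adjusted p = 8.59e-06 and 0.029). ST6GAL1, a sialyltransferase, read 7.45, 7.30 and 7.36 with vehicle, 7.11, 7.13 and 7.21 with progestin and 7.95, 7.96 and 8.15 with progestin plus doxycycline. Its change was 0.66 ± 0.082 against vehicle, and it was 0.87 ± 0.082 above progestin alone (adjusted p = 0.029). TMEM44, a membrane protein, read 7.89, 7.95 and 7.66 with vehicle, 7.51, 7.39 and 7.46 with progestin and 6.02, 5.96 and 6.39 with progestin plus doxycycline. It fell against vehicle (-1.71 ± 0.13) and was lower than with progestin alone by a log2 difference of -1.33 ± 0.13 (adjusted p = 0.029). In the direct difference, leaving out an array kept the call of MACC1 only without vehicle replicate 3 or progestin replicate 1, of ELF5 only without vehicle replicate 3 and of TMEM44 only without progestin plus doxycycline replicate 3. The call of ST6GAL1 was lost whichever array was left out. Without an array of doxycycline alone, these differences cannot be told apart from an effect of the drug. SLITRK5 stood at -1.80 ± 0.29 against progestin alone and was not called (adjusted p = 0.12), but it was called with 16 added, at -1.43 ± 0.19 (adjusted p = 0.0295). The other genes that the naming rule took for this difference were not called on the scale given here. NABP1, a single-stranded DNA binder, stood at 0.88 ± 0.21 (adjusted p = 0.16), and with 16 added S100A8, a calcium-binding alarmin, 0.79 ± 0.13 (adjusted p = 0.0556). For CDSN, the corneodesmosin gene, the difference with 16 added was 0.80 on 1 of its 3 probe sets, for PSG9 -0.62 and for SCGB2A2 -0.56, none of which was called. PSG9 was called against vehicle (-0.83 ± 0.19 with 16 added), but not without vehicle replicate 1 or progestin plus doxycycline replicate 2.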

How the data were processed

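The deposited values were log2 expression values, 1 per probe set and array; the scale was read from their range, since the file headers do not state it. PLIER, limma, Affymetrix Expression Console and Affymetrix Power Tools appear in the submitters' processing notes, without saying which made these values. Genes were named through the platform annotation: 19460 probe sets had 1 symbol, 1754 had several and 12083 had none and were left out. All 9 arrays were fitted in 1 linear model with limma 3.58.1 (R 4.3.3), with empirical Bayes moderation and Benjamini-Hochberg adjustment over 21214 probe sets, a step tested on simulated data. The fit was repeated with 16 added to the linear values. A gene with several probe sets was represented by the brightest over all arrays.

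Gene lists (38, with 810 genes measured) and the comparison were chosen with earlier results of these data known. The naming rule took ELF5, PGR, MACC1, ST6GAL1 and TMEM44. It added the 12 highest and 12 lowest called changes whose groups did not overlap, up to 4 called members of each list with the largest change, and the 4 largest differences between the progestin groups in each direction. Genes outside it were chosen after their values were seen. The alternatives covered scaling, dim probe sets, variance model, array weights, replicate block and leaving out each array. The number of arrays limits the precision: the median SE of a change was 0.12.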

Additional observations from a re-analysis of the deposited data

Results flagged for a closer look

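ELF5, ST6GAL1, TMEM44 and MACC1 were noted because their change against vehicle differed between progestin plus doxycycline and progestin alone by limma's test of the difference itself. The change with doxycycline minus that without it was -0.868 for ELF5, 0.872 for ST6GAL1, -1.33 for TMEM44 and 1.71 for MACC1, on the log2 scale, each with an adjusted p of 0.029.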

How the results depend on the processing

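Against vehicle, the 5953 probe sets called with progestin plus doxycycline became 3901 at an adjusted p under 0.01. They became 1200 where a 2-fold change was asked besides an adjusted p under 0.05, and ran from 4815 to 5889 when 1 array was left out. The count rose to 8793 with array weights, 6772 after quantile normalization and 6694 with a robust variance trend. For progestin alone, 6161 calls became 9502 with array weights. The 4 calls between the progestin groups were the least stable count: they became 530 when the variance was fitted as a robust trend on level, 158 when the dimmest 25% of probe sets were left out, 15 with 16 added, 8 with array weights and 0 with only those 2 groups fitted (2875 probe sets at an unadjusted p under 0.05). They ran from 0 to 2 when 1 array was left out, at 0 without vehicle replicate 1 or 2 or progestin plus doxycycline replicate 1 or 2. The causes were not tested.

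With the replicate number as a block, limma called 5240 probe sets with progestin plus doxycycline against vehicle and 0 between the progestin groups (2592 at an unadjusted p under 0.05). The numbers are shared across groups in the titles, but deviations of same-numbered vehicle and progestin plus doxycycline arrays correlated at -0.13, 0.36 and 0.34, and not every array correlated best with its own number, so no pairing was assumed.

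Of 162 named genes, 157 kept their direction and their side of the threshold against vehicle under every setting that tested them, and none reversed. TNFAIP3, CDH5 and PSG9 lost their call, and ELF5 and MT1G gained one, in some settings. Of 38 lists, 29 kept a count of calls within 1.5 times under all 16 alternatives.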

Other observations

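Some large changes were not called. UGT2B10, a glucuronyl transferase, read 4.18, 4.001 and 5.05 with vehicle and 6.86, 6.73 and 7.03 with progestin plus doxycycline, with 16 added. As deposited its adjusted p was 0.052. TGFBR3, the betaglycan coreceptor of TGF-beta, read 7.26, 7.42 and 6.52 with vehicle and 5.02, 4.80 and 4.72 with progestin plus doxycycline, a change of -2.22 ± 0.73 (adjusted p = 0.0535). The TGFBR3 groups did not overlap. SLC2A3, a glucose transporter, read 6.76, 6.75 and 8.42 with vehicle and 8.43, 8.44 and 8.46 with progestin plus doxycycline, a change of 1.13 ± 0.39 that was not called. These genes were chosen after their values were seen.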
